A study of Homo sapiens with 6 samples.

Results

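Plasminogen activators, matrix metalloproteinases (MMPs) and their inhibitors were followed in the RNA of LoVo cells, a line established from a human colorectal adenocarcinoma. The 9 genes were taken by name from a deposited table of 19223 gene symbols, namely the activators PLAT and PLAU, the urokinase receptor PLAUR, the serpin SERPINE2, the proteases MMP7, MMP14 and MMP15, and the inhibitors TIMP1 and TIMP2. Cells received no drug (Control, 3 libraries) or 2.5 μM DCC-2036, a tyrosine kinase inhibitor (3 libraries). The labels state a 48 h treatment, whereas the legend of the study's plot names another time. Nothing in the labels says whether the libraries came from separate cultures, so the p-values measure the spread between these libraries, which may be technical.

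Plasminogen activators cut plasminogen, a protein of plasma and tissue fluid, into plasmin, a broad protease that degrades fibrin and can activate latent MMPs. Urokinase does so mainly when held at the cell surface by its receptor, and serpins inactivate the activators by forming covalent complexes with them. MMPs cleave collagens, laminins and cell surface proteins, and TIMPs block their active site; in colorectal carcinoma both systems are studied for their part in invasion.

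Each value was an adjusted signal per RefSeq transcript, not a read count, so the depth of a library was unknown. For every symbol the most abundant transcript, by mean over the libraries, was used. Fold changes refer to log2(value + 1), which understates changes of low values, and were tested with limma (two-sided, Benjamini-Hochberg adjusted over 12725 tested genes, called under 0.01). Replicates were less alike in 2 of the DCC-2036 libraries. The median absolute deviation of a tested gene from its group mean was 0.191 and 0.207 on the log2 scale in DCC-2036 replicates 1 and 3, against 0.0686 in DCC-2036 replicate 2 and 0.0591 to 0.0768 in Control. Column totals ran from 38997229 to 40587145 in Control and from 43279603 to 48023306 with DCC-2036. Among all tested genes 2442 were called higher and 2887 lower, so that 45.8% of the calls were higher. With library totals made equal this split became 1669 higher and 3442 lower, or 32.7% higher, and the median fold change over the tested genes moved from -0.092 to -0.29 on the log2 scale. The counts also depended on the libraries used, with 928 to 2675 genes called higher and 1514 to 3507 lower when 1 library was left out.

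PLAT was the member with the clearest change and fell, whereas SERPINE2 rose. Of the 8 members that passed the filter on low values, 1 was called lower, where 22.7% of all tested genes were, and 1 was called higher, where 19.2% were. The members were thus called no more often than tested genes at large. MMP7 had too little signal to be tested. Among the 8 tested members, the groups did not overlap in 5 that were higher with DCC-2036 (32.9% of all tested genes) and in 1 that was lower (38.1%), and they overlapped in MMP14 and MMP15. In bulk RNA, fewer cells of a kind and less RNA per cell cannot be told apart.

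**Figure D1:**
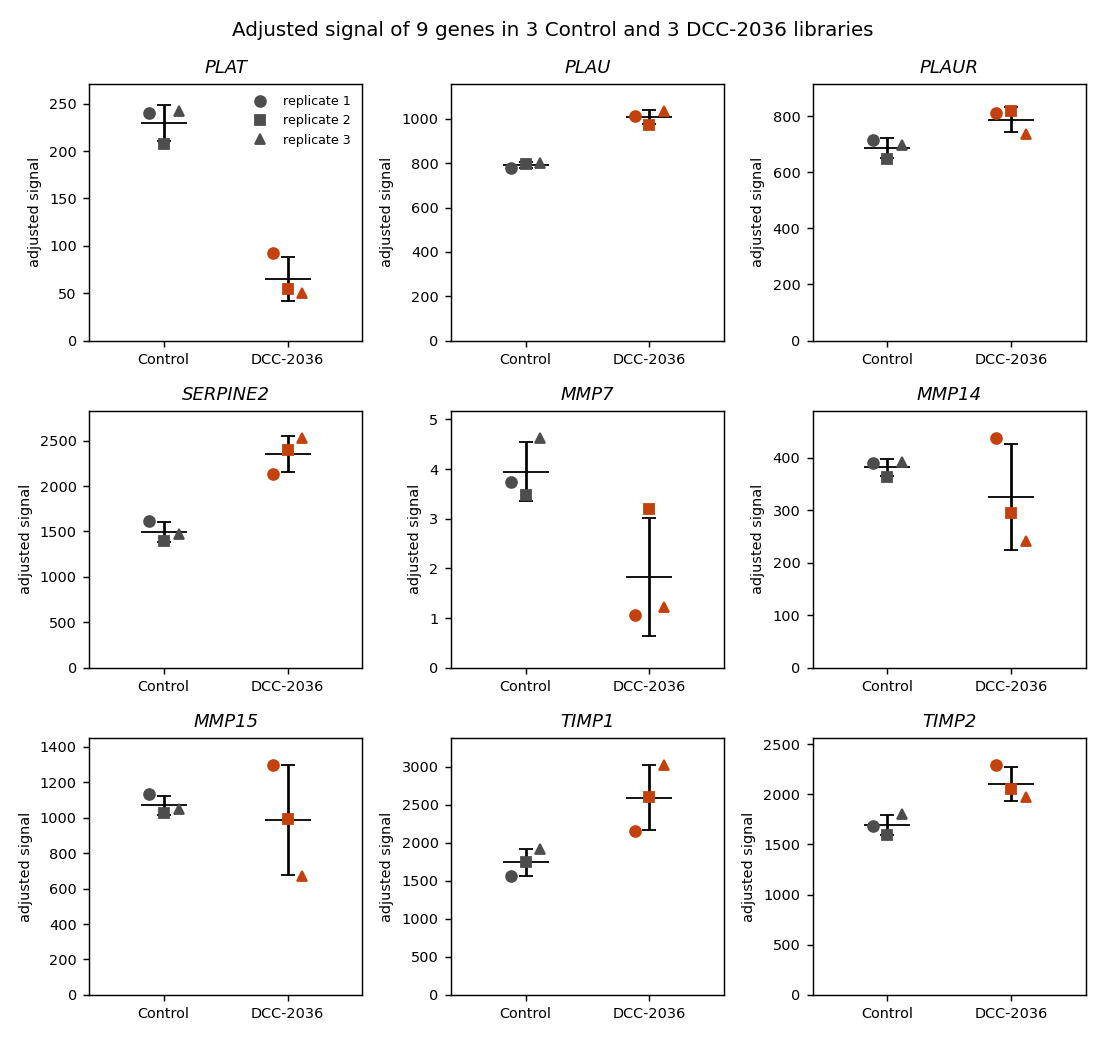
Adjusted signal (vertical axis, from 0) of the 9 genes in 3 Control and 3 DCC-2036 libraries; symbols mark replicates 1 to 3, the wide tick the mean and the bars 1 SD. PLAT lay between 208 and 242 in Control and between 49.8 and 92.1 with DCC-2036.

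PLAT encodes tissue-type plasminogen activator, a secreted serine protease best known for dissolving fibrin clots. Its transcript NM_000930.4 gave 239.8, 208 and 242 without the drug, against 92.1, 54.3 and 49.8 under DCC-2036. Every DCC-2036 value was below every Control value, and the highest of them belonged to replicate 1. The mean of PLAT fell to 28.4% of that in Control, from 229.9 ± 19.2 (SD, n = 3) to 65.4 ± 23.2 (SD, n = 3). The log2 fold change was -1.85 (SE 0.24, 95% confidence interval -2.42 to -1.27, adjusted p = 0.00124, limma), and 576 of the 12725 tested genes had a lower one. It was called under all alternatives, with adjusted p-values from 0.000205 to 0.00757.

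Both further transcripts of PLAT moved alike. NM_033011.3 went from 204 ± 17.2 to 52.7 ± 19.5 (SD, n = 3 each) and NM_001319189.1 from 187 ± 12.0 to 56.0 ± 18.8. When all transcripts were tested as separate rows, both were called lower (log2 fold changes -1.99 and -1.77, adjusted p = 0.00113 and 0.00117, limma). Of the 17 tested transcripts of the members, 3 were called lower and 3 higher, against 22.4% and 19.7% of the 32323 transcripts tested. Transcripts of 1 gene share most of their sequence and hence reads, so they are not independent measurements.

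PLAU encodes urokinase, the activator that works at the cell surface. NM_002658.4 was at 778, 795 and 803 in the Control libraries, and the treated libraries read 1014, 974 and 1035. The Control values lay close together and all 3 DCC-2036 values stood above them. The log2 fold change of 0.35 (SE 0.091, 95% confidence interval 0.13 to 0.56) had an adjusted p of 0.0159 in limma and did not pass the limit. PLAU passed it with scaling by the median of ratios (adjusted p = 0.00999) and with a mean-variance trend (0.00984). With equal library totals its log2 fold change was 0.15 and its adjusted p 0.190, the highest over the alternatives. The other transcripts, NM_001145031.2 and NM_001319191.1, had log2 fold changes of 0.33 each and were not called. In the GENCODE 29 annotation, exons of PLAU overlap those of C10orf55 on the opposite strand, which was listed at 12.7 to 33.2 in Control and 39.5 to 54.9 with DCC-2036, and how reads were assigned there is not given in the sources used here.

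PLAUR encodes the receptor that anchors urokinase to the membrane by a lipid tail. The untreated libraries gave 717, 646 and 696 for NM_002659.3 and the treated ones 811, 818 and 736. The groups did not overlap, although DCC-2036 replicate 3 came close to Control replicate 1. Its log2 fold change was 0.20 (95% confidence interval -0.046 to 0.44, adjusted p = 0.131, limma), an interval that held 0. With equal library totals it became 0.0015. For 2 of its 3 other transcripts, NM_001301037.1 and NM_001005376.2, the groups overlapped, and none of the 3 was called.

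SERPINE2 encodes protease nexin-1, a serpin that inactivates thrombin, urokinase and tissue-type activator. Control libraries held 1613, 1393 and 1471 units of NM_006216.3, and DCC-2036 libraries 2135, 2395 and 2526. All DCC-2036 values exceeded all Control values by a wide margin. Mean SERPINE2 went up from 1492 ± 111 to 2352 ± 199 (SD, n = 3 each), with a log2 fold change of 0.66 (SE 0.11, 95% confidence interval 0.38 to 0.93, adjusted p = 0.00353, limma). This call did not survive equal library totals (adjusted p = 0.0107, limma) or a replicate block (0.0178). The call was also lost without any 1 Control library (0.0108, 0.0196 and 0.0180 without replicates 1, 2 and 3) or without DCC-2036 replicate 2 (0.0180). The log2 fold change of SERPINE2 stayed between 0.46 and 0.73 over all alternatives. Its other transcripts, NM_001136528.1 and NM_001136530.1, were both called higher, with log2 fold changes of 0.66 each and adjusted p-values of 0.00327 and 0.00228.

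TIMP1 and TIMP2 encode secreted inhibitors of MMPs, and TIMP2 also takes part in the activation of latent MMP2 on MMP14. For TIMP1 the Control libraries read 1563, 1741 and 1924, and those with DCC-2036 2158, 2603 and 3017. The highest Control value was below the lowest DCC-2036 value, and the spread was wide in the treated group. Its log2 fold change of 0.56 (SE 0.16, 95% confidence interval 0.19 to 0.94) had an adjusted p of 0.0196 in limma, past 0.01. Without DCC-2036 replicate 1 it was called (log2 fold change 0.69, adjusted p = 0.00607), and with a mean-variance trend as well (0.00641); over the alternatives the adjusted p reached 0.0690. TIMP2 was at 1682, 1599 and 1799 without the drug and at 2288, 2049.8 and 1969 with it. The groups did not overlap, and the log2 fold change of 0.31 (95% confidence interval 0.049 to 0.57) had an adjusted p of 0.0439. With equal library totals TIMP2 had a log2 fold change of 0.11 (adjusted p = 0.457), and its adjusted p was 0.0943 with scaling by the upper quartile. At an adjusted p under 0.05, 4 members were higher, namely SERPINE2, PLAU, TIMP1 and TIMP2, where 28.5% of all tested genes were higher at that limit, and PLAT was the 1 member lower (33.7%). With equal library totals PLAU and TIMP2 were past 0.05, and the log2 fold change of TIMP1 shrank to 0.37 (adjusted p = 0.0442). Without Control replicate 1 or without Control replicate 2, SERPINE2 was the 1 of these 4 under 0.05 (for PLAU 0.0583 and 0.0638, for TIMP1 0.0690 and 0.0584, for TIMP2 0.113 and 0.154). Of the 4, SERPINE2 and TIMP1 were under it without Control replicate 3, and SERPINE2 and PLAU without DCC-2036 replicate 2. TIMP2 was also past 0.05 without a filter on low values (0.0760), with a replicate block (0.0892) and without DCC-2036 replicate 1 (0.0819). Exons of TIMP2 overlap CEP295NL on the same strand (1.68 to 14.3 in Control, 33.3 to 56.1 with DCC-2036), and TIMP1 lies inside SYN1 on the opposite strand, with no shared exon.

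MMP14 and MMP15 encode membrane-anchored MMPs that act on matrix next to the cell. The MMP14 signal was 390.2, 363 and 392 in untreated cells and 437, 296 and 242 in treated cells. DCC-2036 replicate 1 was above all Control values and the other DCC-2036 libraries were below them. The log2 fold change was -0.27 (SE 0.22, 95% confidence interval -0.80 to 0.25, adjusted p = 0.300, limma), and it was -0.51 without DCC-2036 replicate 1 (adjusted p = 0.0137) and -0.086 without replicate 3. With equal library totals it was -0.47 (adjusted p = 0.145).

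MMP15 stood at 1132, 1026 and 1050.1 without DCC-2036 and at 1295, 995 and 671 with it. Again DCC-2036 replicate 1 was the highest of all libraries and replicate 3 the lowest. The log2 fold change of -0.17 (95% confidence interval -0.73 to 0.40, adjusted p = 0.560, limma) turned to 0.087 without DCC-2036 replicate 3 and was -0.36 with equal library totals (adjusted p = 0.281). MMP7, a secreted matrilysin of glandular epithelium, gave only 3.75, 3.48 and 4.62 in untreated and 1.05, 3.20 and 1.23 in treated libraries. The treated values lay below the untreated ones without overlap, but all 6 were under the filter, and neither a test nor a fold of MMP7 itself is given.

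**Figure D2:**
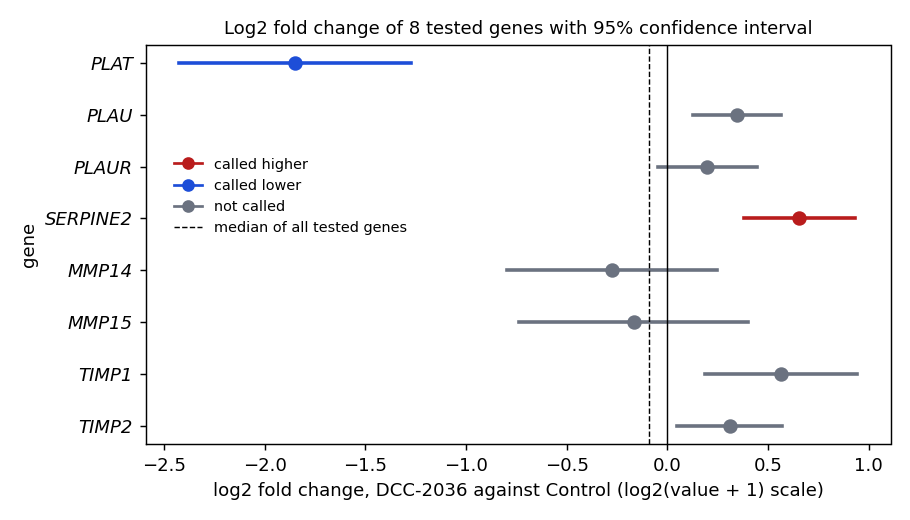
Log2 fold change of DCC-2036 against Control on the log2(value + 1) scale (horizontal axis) for the 8 tested members; points are limma estimates, bars 95% confidence intervals, colours the call and the dashed line the median of all tested genes, -0.092. PLAT at -1.85 lies apart from the other members, which run from -0.27 to 0.66.

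Levels were compared between genes per kilobase of transcript, with lengths from GENCODE 29, on the assumption that the deposited signal was not already divided by length, which the sources used here do not state. Undivided, the order differed: the Control mean of MMP15 (1069.5) was above those of PLAU (792) and PLAUR (686), PLAU was above PLAUR, and TIMP2 (1693) was above SERPINE2 (1492) in Control but below it with DCC-2036 (2102 against 2352). In Control, TIMP1 had the highest signal per kilobase, 1954 ± 202 (SD, n = 3), followed by SERPINE2 with 680 ± 50.7, TIMP2 with 464 ± 27.6, PLAUR with 443 ± 23.4, PLAU with 341 ± 5.46 and MMP15 with 252 ± 13.1. MMP14 had 102 ± 4.31, PLAT 85.0 ± 7.08 and MMP7 3.51 ± 0.53. TIMP2 and PLAUR differed by less than their SDs, and the other neighbours in this order by more. With DCC-2036 the order per kilobase was the same, and PLAT stood at 24.2 ± 8.58 per kilobase against 87.1 ± 27.0 for MMP14. PLAU was above PLAT per kilobase in both groups.

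Ratios of a pair of members within a library, computed as log2 of (value + 1) over (value + 1), depend little on the scaling between libraries where both values are far above 1. PLAT to PLAU had log2 ratios of -1.69, -1.93 and -1.73 without the drug and -3.45, -4.14 and -4.35 with it. It fell by 2.20, from -1.78 ± 0.13 to -3.98 ± 0.47 (SD, n = 3 each), without overlap. SERPINE2 to PLAT rose by 2.50, from 2.69 ± 0.083 to 5.20 ± 0.59. For TIMP2 to MMP14 the log2 ratios were 2.11, 2.13 and 2.20 in untreated and 2.38, 2.79 and 3.02 in treated libraries. This ratio was higher in each treated library than in any Control library. SERPINE2 to PLAU differed by 0.31, also without overlap. TIMP1 to MMP7 had no overlap either, but with the low values of MMP7 the size of its difference rests on the pseudocount, at 1.44 with 1 and 1.79 with 0.1, and is not read further. The groups overlapped for PLAUR to PLAU, MMP15 to MMP14 and TIMP2 to TIMP1. In the exact two-sided permutation test the 5 pairs without overlap had p = 0.1, the smallest that 3 against 3 libraries allow, and 0.16 after adjustment over the 8 pairs, so none could pass 0.05.

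Promoter stretches are shown for SERPINE2, which was called higher, for PLAU and TIMP1, whose groups did not overlap but which did not pass the limit, and for MMP14 and MMP7. RefSeq windows on GRCh38.p14, from 250 bases before to 50 after a start, were found for 7 members in 9 windows. No window was available for PLAT or TIMP2, so the motif counts do not cover them. The motifs searched on both strands were TGANTCA for AP-1, GGAAGT for ETS factors and GGGCGG for SP1, found in 7.71%, 22.8% and 45.0% of 35116 windows, and no match in the members' windows overlapped another. In the stretches below, capitals mark a match, and bases within annotated exons of the gene were left out. The PLAU stretch is chr10:73910882-73911103 (plus strand), SERPINE2 chr2:224038805-224038890 (minus), TIMP1 chrX:47582186-47582312 (plus), MMP14 chr14:22836335-22836556 (plus) and MMP7 chr11:102530754-102530997 (minus). The SERPINE2 stretch lies inside the gene, downstream of the start of NM_006216.3.
PLAU: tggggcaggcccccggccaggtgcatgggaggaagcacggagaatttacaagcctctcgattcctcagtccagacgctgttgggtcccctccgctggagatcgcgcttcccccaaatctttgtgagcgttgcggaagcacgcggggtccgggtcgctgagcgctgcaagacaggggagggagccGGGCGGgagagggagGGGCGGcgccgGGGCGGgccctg
SERPINE2: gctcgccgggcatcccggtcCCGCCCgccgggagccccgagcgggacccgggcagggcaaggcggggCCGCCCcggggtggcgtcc
TIMP1: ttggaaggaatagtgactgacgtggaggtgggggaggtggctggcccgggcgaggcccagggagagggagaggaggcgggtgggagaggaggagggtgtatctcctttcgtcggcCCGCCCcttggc
MMP14: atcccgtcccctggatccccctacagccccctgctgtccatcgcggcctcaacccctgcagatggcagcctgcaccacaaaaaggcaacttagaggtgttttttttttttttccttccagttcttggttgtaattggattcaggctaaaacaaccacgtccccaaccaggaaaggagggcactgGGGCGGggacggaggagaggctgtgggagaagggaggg
MMP7: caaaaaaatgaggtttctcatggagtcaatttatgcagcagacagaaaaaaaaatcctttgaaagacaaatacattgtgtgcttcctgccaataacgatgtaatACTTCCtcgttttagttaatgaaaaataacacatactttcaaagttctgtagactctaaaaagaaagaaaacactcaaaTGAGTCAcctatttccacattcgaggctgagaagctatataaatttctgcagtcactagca
Counted over whole windows, GGGCGG stood 3 times in the window of PLAU that holds the printed stretch and 0 times in its other window, 2 times and 1 time in the windows of SERPINE2, 2 times in that of TIMP1, 1 time in that of MMP14 and 5 times in that of MMP15. The windows of PLAUR and MMP7 had no GGGCGG, and each held 1 TGANTCA and 1 GGAAGT. No other window of a member held either of these motifs. A match is a description of letters and not a binding site.

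The other genes of the pathway were read from 7 lists, whose counts stand against 19.2% of all tested genes called higher and 22.7% called lower. In the list of plasminogen activation and its cell surface receptors, 8 of 9 genes were tested, 1 was called higher and 1 lower, and the median log2 fold change was 0.11 against -0.092 for all tested genes. The gene called higher was ANXA2, which with S100A10 forms a complex that binds plasminogen at the membrane. ANXA2 rose from 11648 ± 471 to 20237 ± 3562 (SD, n = 3 each; log2 fold change 0.78, adjusted p = 0.00449, limma). S100A10 went from 3555 ± 221 to 5105 ± 827 without passing the limit (adjusted p = 0.0191), and LRP1, an endocytic receptor that clears activator and serpin complexes, from 362 ± 50.4 to 233 ± 64.8 (adjusted p = 0.0415). S100A10 passed with a mean-variance trend (adjusted p = 0.0056, limma). With equal library totals its log2 fold change was 0.31 instead of 0.51 (adjusted p = 0.0589). PLG, plasminogen itself, was listed at 0 in all 6 libraries.

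Among serpin inhibitors of plasminogen activators and plasmin, 4 of 5 were tested and 2 called higher, with a median of 0.39. Beside SERPINE2 this was SERPINA5, the protein C inhibitor, at 13.7 ± 2.12 in Control and 29.4 ± 5.26 with DCC-2036 (log2 fold change 1.04, adjusted p = 0.00290, limma). The groups overlapped in the other tested genes of this list, SERPINI1 and SERPINF2.

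Of 16 secreted MMPs only 3 passed the filter, namely MMP11, MMP19 and MMP28, and 0 were called by limma in either direction at 0.01, with 1, MMP28, at an unadjusted p under 0.05 (adjusted p = 0.0456). MMP8, MMP12 and MMP27 were listed at 0 throughout. Of 7 membrane-bound MMPs 5 were tested, 1 was called higher and 1 lower, and the median was -0.17. MMP17, held in the membrane by a lipid anchor, fell from 203 ± 18.0 to 68.5 ± 4.32 (SD, n = 3 each; log2 fold change -1.55, adjusted p = 0.000268, limma). MMP24, with a transmembrane anchor, rose from 123 ± 13.1 to 224 ± 34.3 (log2 fold change 0.85, adjusted p = 0.00352). Among MMP inhibitors, 3 of 6 were tested and 1 called higher, with a median of 0.56. This was RECK, a membrane-anchored inhibitor of several MMPs, at 28.1, 39.8 and 27.5 without the drug and 75.7, 64.1 and 96.7 with it (log2 fold change 1.28, adjusted p = 0.00266, limma).

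In the list of other pericellular proteases and Kunitz inhibitors, 14 of 16 were tested, 6 were called higher and 1 lower, and the median was 0.52. ADAM17, the sheddase of tumour necrosis factor and several EGF receptor ligands, rose from 843 ± 34.4 to 1795 ± 232 (log2 fold change 1.08, adjusted p = 0.000848, limma). ADAM9 rose from 3404 ± 282 to 6650 ± 1619 (0.94, adjusted p = 0.00605). CTSL, a lysosomal cysteine protease, rose from 733 ± 54.3 to 1113 ± 123 (0.60, adjusted p = 0.00665), and the single gene called lower was PRSS8, prostasin, from 583 ± 26.9 to 408 ± 33.1 (-0.51, adjusted p = 0.00680).

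AP-1 and ETS factors are transcription factors known to bind promoters and enhancers of protease genes. All 13 were tested, 2 were called higher and 4 lower, with a median of -0.50. JUN was at 245, 202 and 198 in untreated and at 819, 1497 and 2925 in treated libraries (log2 fold change 2.83, adjusted p = 0.00220, limma). ETS2 rose from 1186 ± 44.4 to 2204 ± 75.0 (0.89, adjusted p = 0.000648). FOSL1 fell from 1700 ± 153 to 731 ± 108 (-1.22, adjusted p = 0.000902) and ETV4, at 1112, 1099 and 1082 without and 486, 445 and 470.2 with the drug, had a log2 fold change of -1.23 (adjusted p = 0.000281). Their part in the changes of the members was not tested.

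Several of these calls were lost when single libraries were left out. ANXA2, ADAM9, CTSL and PRSS8 were not called without any 1 of the Control libraries or without DCC-2036 replicate 2. Adjusted p-values in these fits reached 0.0206, 0.0263, 0.0289 and 0.0306 (limma). The log2 fold changes stayed about as large, at 0.75 to 0.80, 0.87 to 0.98, 0.54 to 0.64 and -0.56 to -0.48. MMP24 lost its call without Control replicate 1 or 2 or DCC-2036 replicate 2 (up to 0.0176), SERPINA5 without Control replicate 2 or 3 or DCC-2036 replicate 2 (up to 0.0142), RECK without Control replicate 1 or 3 (up to 0.0132) and JUN without Control replicate 2 or 3 (up to 0.0112). With equal library totals SERPINA5, ADAM9 and CTSL were not called (adjusted p = 0.0124, 0.0101 and 0.0147), nor was PRSS8 with scaling by the median of ratios (0.0109). Without a filter on low values ANXA2, ADAM9, CTSL and PRSS8 were not called (0.0110, 0.0141, 0.0153 and 0.0156), nor was SERPINA5 with a mean-variance trend (0.0143). A replicate block ended the calls of MMP24, RECK, ANXA2, ADAM9, CTSL and PRSS8 (adjusted p = 0.0125, 0.0147, 0.0113, 0.0214, 0.0146 and 0.0247, limma). MMP17, ADAM17, ETS2, FOSL1 and ETV4 kept their calls under each scaling, filter, pseudocount and model tried and with any 1 library left out. Of these, ETS2 had an absolute log2 fold change under 1.

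**Figure D3:**
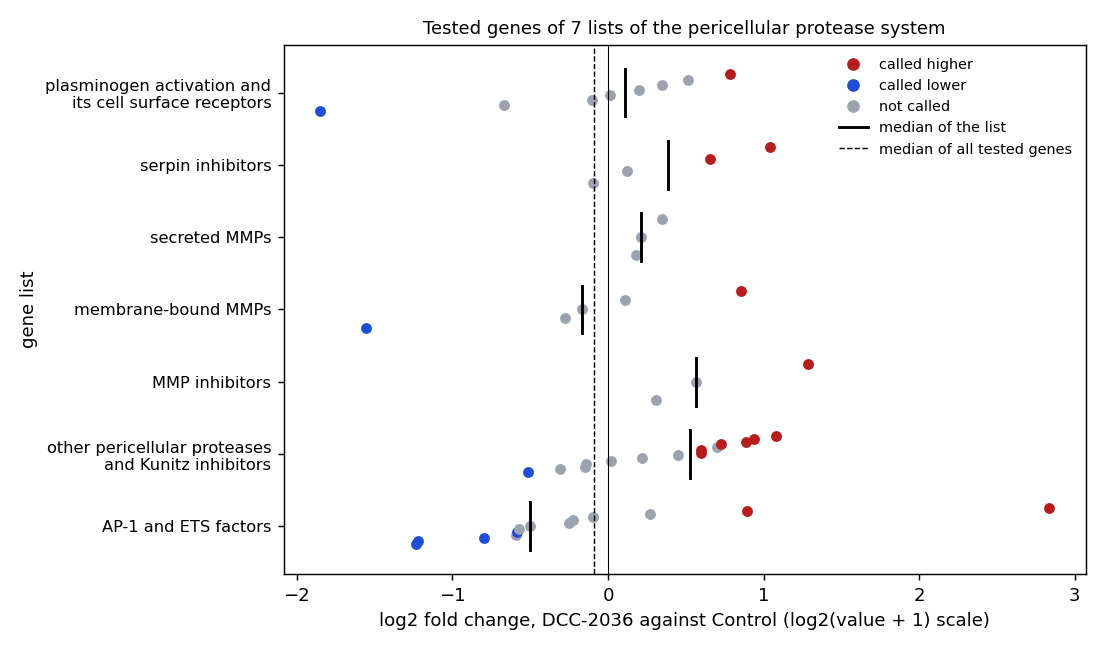
Log2 fold change of DCC-2036 against Control on the log2(value + 1) scale (horizontal axis) for the tested genes of 7 lists; each point is 1 gene coloured by its call, black ticks are list medians and the dashed line is the median of all tested genes, -0.092. PLAT at -1.85 and MMP17 at -1.55 are the lowest points of their lists and JUN at 2.83 the highest of all.

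Profiles over the 6 libraries, on the log2 scale and centred on each gene's mean, were nearest to that of PLAT for ENDOV, ZNF75A, ZHX2, EIF4G3 and MLPH, at root mean square distances of 0.0764 to 0.0960. ENDOV, for example, was at 311, 277 and 297 without the drug and at 106, 65.1 and 64.9 with it. Nearest to PLAU were RYK, LARGE2, GRSF1, EIF2B1 and RBMS1, at distances of 0.0255 to 0.0331, none of them called. With a mean-variance trend all of these but RBMS1 were called, and LARGE2, GRSF1 and EIF2B1 also with scaling by the median of ratios. Log2 fold changes of these neighbours of PLAU were 0.35 to 0.39, and 0.15 to 0.19 with equal library totals.

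The labelled cell line was set against markers of colon epithelium and of other cell types that make these proteins in tissue. Of 10 epithelial markers 7 were tested, among them EPCAM, CDH1, KRT8, KRT18, KRT19 and CDX2, and the most abundant was KRT8. VIL1 and LGALS4 were under 10 in all libraries and CDX1 was listed at 0. CDH1 and KRT8 rose (log2 fold changes 1.10 and 0.84, adjusted p = 0.000354 and 0.00287, limma) and KRT20 fell (-1.15, adjusted p = 0.00427), the calls of KRT8 and KRT20 being lost without single libraries (adjusted p up to 0.0146 and 0.0176), and that of KRT20 also without a filter on low values (0.0105). The summed signal of the 10 markers was 104483 to 115000 in Control and 148344 to 188449 with DCC-2036, and KRT8 made up most of the difference, with means of 59932 and 108237. The 6 fibroblast markers summed to 439.9, 412 and 369.6 in untreated and 516, 452 and 553 in treated libraries, with COL1A1 the most abundant, and 0 of the 2 tested were called by limma, nor was either at an unadjusted p under 0.05, although the groups did not overlap for COL1A1, which had the higher values with DCC-2036. The 5 endothelial markers summed to 10.5 to 18.6 and 15.4 to 42.3. VWF, the most abundant of them on average, was the 1 tested, with higher values and no overlap (log2 fold change 1.16, adjusted p = 0.0611, limma) and an unadjusted p under 0.05. The 6 leukocyte markers summed to 7.36 to 18.6 and 17.8 to 47.8, with LYZ the most abundant and PTPRC listed at 0. The part of these levels in the values of the members was not tested.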

How the data were processed

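RNA of 3 Control and 3 DCC-2036 libraries was analysed, grouped by the sample titles. The authors deposited a table with 1 adjusted signal per RefSeq transcript and library; the aligner, the genome build and the adjustment are not given in the sources used here. The low values are not multiples of 1 step, so reads were not recovered and depth is unknown. The table also holds the authors' log2 fold change, p-value and q-value per transcript, which were not used.

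On the log2(value + 1) scale, limma 3.58.1 in R 4.3.3 was run on symbols reaching 10 in 3 or more libraries. Ratios were tested with exact permutation in scipy 1.17.1 (Python 3.11.15, numpy 2.4.6, pandas 2.3.3, matplotlib 3.10.9). The code was tested on simulated data.

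The members and lists were chosen with earlier results of these data known. An item of the serpin list is not reported here and was left out of that list's counts, median and plot. Named genes were the members, the 2 highest and 2 lowest called genes of each list, and the 5 profiles nearest to PLAT and PLAU. Other tested genes of the lists could also be named, and list genes at 0 in all libraries were. S100A10, LRP1, MMP28 and the markers with values were named after their values were seen, and the motifs were also chosen then. Alternatives were other scalings, filters, a pseudocount of 0.1, a trend, a replicate block, libraries left out, all transcripts as rows and other limits.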

Additional observations from a re-analysis of the deposited data

How the results depend on the processing

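Of 120 recomputed log2 fold changes of the 8 tested members, 109 kept their direction and their side of the limit of 0.01, 6 lost a call (all of SERPINE2), 4 gained one (PLAU and TIMP1) and 1 changed direction: MMP15 ran from -0.39 to 0.087 with 1 library left out and was above 0 without DCC-2036 replicate 3. For 28 other named genes, recomputed by a choice made after seeing the data, 363 of 420 recomputed values kept direction and side, 49 lost a call and 8 gained one. All 64 recomputed log2 ratios moved by less than the spread between replicates.

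The count of members called higher, 1, became 2 with scaling by the median of ratios, 0 with equal library totals, 3 with a mean-variance trend, 4 at an adjusted p limit of 0.05 and 0 with a log2 fold change of at least 1; it ran from 0 to 2 with 1 library left out. The count called lower was 1 under all alternatives. The calls over all genes moved with these settings too. Of 12722 tested genes, 2647 were called higher and 2661 lower with scaling by the median of ratios. Of 12737, 1669 were higher and 3442 lower with equal library totals. Of 12725, 2880 were higher and 3307 lower with the trend, and 3630 and 4290 at the limit of 0.05. Over all genes, with 1 library left out, 928 to 2675 were called higher and 1514 to 3507 lower. A log2 fold change of at least 1 in size left 944 higher and 1930 lower. With all transcripts as rows 6379 were higher and 7250 lower, since more rows were tested.

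Deviations of libraries with the same replicate number from their group means correlated over genes at 0.081, -0.0352 and -0.00329. Of the 6 libraries, 2 correlated best with their own number. With 3 libraries per group these correlations cannot settle whether the numbers pair the libraries, which the sources used here do not state. With the replicate block 1202 genes were called higher and 1909 lower, and 0 members higher, since SERPINE2 had an adjusted p of 0.0178 (limma). The block also ended the calls of MMP24, RECK, ANXA2, ADAM9, CTSL, PRSS8 and KRT20 (adjusted p = 0.0125, 0.0147, 0.0113, 0.0214, 0.0146, 0.0247 and 0.0214). At an unadjusted p under 0.05 in limma, 4 members were higher in the main fit, 3 with the block and 2 with equal library totals. The share of all tested genes at that unadjusted limit is not given here, so these counts are not read as particular to the members. Depth is unknown, and 3 libraries per group limit what small changes can be called.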
